A study of Pseudozyma hubeiensis with 12 samples.

Results

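Amino acid biosynthesis genes of the basidiomycete yeast Pseudozyma hubeiensis strain BOT-O were followed from exponential growth into nitrogen starvation on glucose and on xylose. Members were the loci whose gene name begins with arg, his, leu, ilv, lys, trp, aro, thr, hom, ser, pro, bat or sam followed by a digit, grouped by the amino acid they serve. The rule used names only and found 68 of the 6689 loci in the table. Of these, 64 are annotated as enzymes of amino acid or S-adenosylmethionine synthesis. The other 4 carry a fitting name but another function: arg82 (inositol polyphosphate multikinase), aro80 (a transcriptional activator), leu5 (a mitochondrial carrier) and sam50 (a subunit of the mitochondrial sorting and assembly machinery). Names and products come from the best protein match of each locus, so they record similarity to known proteins.

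Cultures grew in yeast nitrogen base medium with ammonium sulfate as the nitrogen source, at 80 g of carbon per g of nitrogen. The groups were exponential glucose, exponential xylose, starved glucose and starved xylose, with biological replicates A, B and C in each (n = 3). All 12 libraries held poly-A selected RNA of the one strain. Exponential growth was sampled at time point 1 and starvation at time point 2, so starvation and culture age cannot be told apart. Library totals ran from 15130232 to 32374467 counts, and 60 of the 68 members had enough counts to be tested among 5805 genes. Levels below are CPM, the usual scaling of a read count by its library total, here with TMM-scaled totals. A CPM is a share of the poly-A RNA of a culture, so fewer cells of a kind, less of a transcript per cell and more of other transcripts cannot be told apart. Changes are log2 fold changes ± SE, and a gene was called at a Benjamini-Hochberg adjusted p under 0.05 in edgeR's quasi-likelihood test over all genes tested.

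Yeasts can make every amino acid from central carbon intermediates and ammonium. Most carbon skeletons receive their amino group late, from glutamate through aminotransferases, some of which also run in the direction of breakdown. In Saccharomyces cerevisiae many of these genes are under general amino acid control, in which the kinase Gcn2 senses uncharged tRNA and translation of the activator Gcn4 rises.

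At nitrogen starvation most of these genes fell on both sugars, and a few rose. On glucose 48 of the 60 tested members fell and 6 rose, where 41.1% of all genes tested fell and 40.1% rose. On xylose 45 fell and 6 rose, beside 40.6% and 40.6% of all genes. The median change of the members was -1.45 on glucose and -1.15 on xylose, beside -0.02 and 0.00 over all genes tested. The same 6 members rose on both sugars and 43 fell on both; 5 fell on glucose without a call on xylose, 2 fell on xylose without a call on glucose, and 4 were called on neither. Falls of at least 2-fold covered 39 members on glucose (22.1% of all genes) and 35 on xylose (20.2%). Groups did not overlap in any replicate for 49 lower and 6 higher members on glucose (background 41.6% and 39.9%), and for 47 lower and 6 higher members on xylose (42.6% and 42.3%). Without the 4 misnamed loci the counts were 47 down and 5 up of 57 on glucose, and 43 down and 5 up on xylose.

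**Figure D1:**
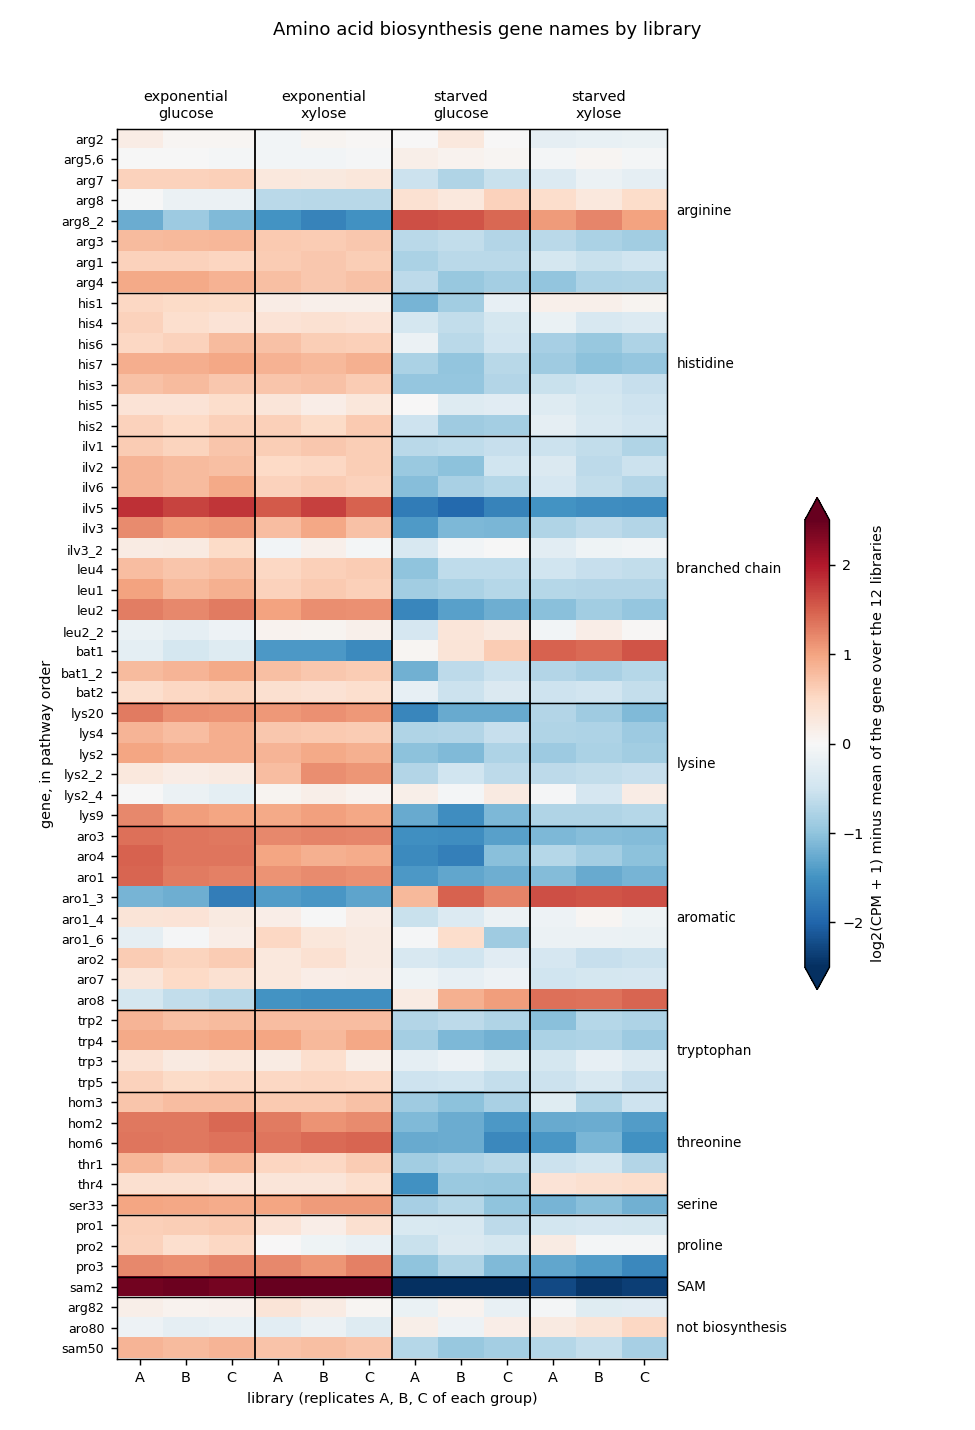
Level of the 60 tested members in each of the 12 libraries, as log2(CPM + 1) minus the gene's mean over all libraries; rows follow the pathways, columns the groups, and the colour scale is clipped, which only sam2 exceeds. Most rows are red in exponential growth and blue in starvation, while arg8_2, bat1, aro8 and aro1_3 show the opposite.

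The 64 enzymes together held 2.08, 1.98 and 2.02% of all counts in exponential glucose libraries A, B and C, and 1.85, 1.90 and 1.89% in exponential xylose. In starvation they held 0.709, 0.700 and 0.724% on glucose and 0.782, 0.814 and 0.785% on xylose. Every starved library was below every exponential one. By pathway the decline was uneven. The arginine genes went from 0.361 ± 0.00478% to 0.218 ± 0.0103% on glucose (mean ± SD, n = 3), the lysine genes from 0.262 ± 0.0136% to 0.0659 ± 0.00304%, and the single S-adenosylmethionine gene from 0.175 ± 0.00312% to 0.00493 ± 0.000734%. On xylose the branched-chain genes went from 0.451 ± 0.0140% to 0.238 ± 0.00214%. Replicates of the members were close: the median coefficient of variation over the 55 members with a mean of at least 20 CPM was 3.83% in exponential glucose, 3.75% in exponential xylose, 10.4% in starved glucose and 6.45% in starved xylose. All 4974 genes of that level gave 4.77, 5.29, 10.9 and 8.43%. The largest value was that of his1 in starved glucose, 36.3%.

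**Figure D2:**
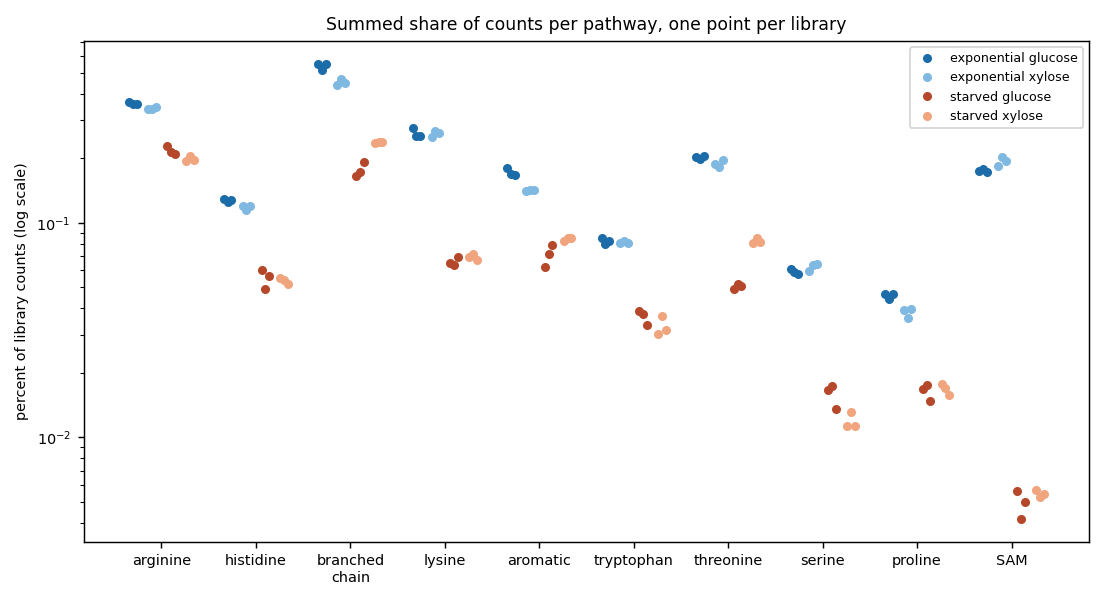
Percent of all counts of a library taken by the genes of each pathway, on a log axis, with one point per library and one colour per group. Every pathway lies lower in starvation than in exponential growth on both sugars, and S-adenosylmethionine is the lowest in starvation, at 0.00493% of the counts on glucose and 0.00546% on xylose.

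The deepest fall was that of sam2 (PHBOTO_004486), the S-adenosylmethionine synthase that turns methionine into the cell's main methyl donor. It stood at 1649.7, 1695 and 1627 CPM in exponential glucose and at 1755, 1927 and 1831 CPM in exponential xylose. In starvation it stood at 54.5, 42.6 and 52.3 CPM on glucose and at 64.0, 56.4 and 60.1 CPM on xylose. The phases were far apart in all replicates, with a change of -5.06 ± 0.11 on glucose (adjusted p = 1.08e-15) and -4.93 ± 0.11 on xylose (adjusted p = 2.02e-15). The starvation change did not pass the test for a difference between the sugars (0.12 ± 0.14, adjusted p = 0.5). Between starved cultures sam2 was 0.27 ± 0.10 higher on xylose (adjusted p = 0.0361), a call lost when libraries were scaled by RLE (adjusted p = 0.0594).

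Branched-chain amino acids (isoleucine, valine and leucine) share part of their synthesis. Of the 13 tested genes of this group, 11 fell on glucose and 10 on xylose. The reductoisomerase ilv5 (PHBOTO_005361), which acts in isoleucine and valine synthesis alike, had 1520.3, 1393 and 1484 CPM in exponential glucose and 1246, 1406 and 1196 CPM in exponential xylose. Starved libraries had 128, 110.4 and 134 CPM on glucose and 151, 145 and 144 CPM on xylose. No starved library came near an exponential one, and the change was -3.56 ± 0.10 (adjusted p = 2.01e-14) on glucose and -3.13 ± 0.10 (adjusted p = 1.03e-13) on xylose. The dehydratase ilv3 followed with -2.34 ± 0.10 and -1.56 ± 0.09, and the catalytic and small subunits of acetolactate synthase, ilv2 and ilv6, with -1.59 ± 0.12 and -1.73 ± 0.10 on glucose. Both subunits thus changed by about the same amount, as they did on xylose (-1.06 ± 0.12 and -1.18 ± 0.10). In the leucine branch the isopropylmalate dehydrogenase leu2 fell by 2.69 and 2.09, the isomerase leu1 fell by 1.69 and 1.34, and the entry enzyme leu4 fell by 1.5 and 1.15, on glucose and xylose in turn. The threonine dehydratase ilv1, which feeds isoleucine, changed by -1.28 ± 0.08 and -1.29 ± 0.08. The second copies were different: leu2_2 was called on neither sugar (0.26 ± 0.17 and -0.05 ± 0.17), and ilv3_2 fell on glucose (-0.47 ± 0.12) but not past the test on xylose (-0.15 ± 0.12).

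The last step to the branched-chain amino acids is catalysed by branched-chain aminotransferases, and its 3 loci moved in different directions. The locus bat1 (PHBOTO_000729), annotated as the mitochondrial enzyme, had 376, 331 and 358 CPM in exponential glucose and 164, 164 and 148 CPM in exponential xylose. In starvation it had 459, 557 and 693 CPM on glucose and 1251, 1201 and 1334 CPM on xylose. Starved xylose libraries were thus the highest and exponential xylose libraries the lowest of all, with no overlap between any of the 4 groups. It rose by 0.68 ± 0.12 on glucose (adjusted p = 6.58e-05) and by 2.99 ± 0.13 on xylose (adjusted p = 2.97e-12). The other 2 loci fell: bat1_2 changed by -1.65 ± 0.13 and -1.44 ± 0.13, and bat2, annotated as the cytosolic enzyme, by -0.86 ± 0.09 and -0.92 ± 0.09. Copies may share reads, so the separate levels of bat1 and bat1_2 are uncertain.

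**Figure D3:**
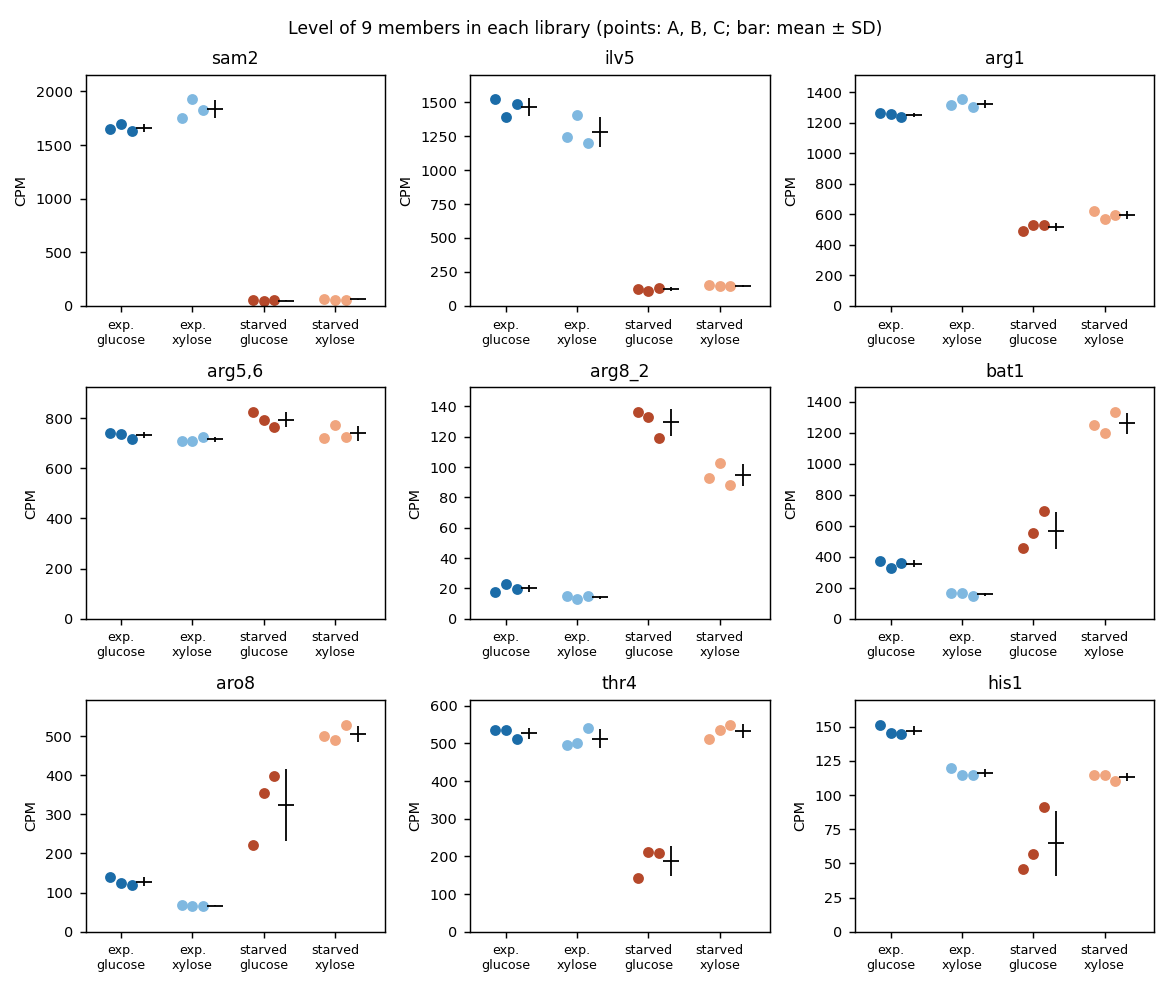
CPM of 9 members in each library, with points for replicates A, B and C and a bar at the mean ± SD of each group; every axis starts at 0. The genes sam2 and ilv5 are near the bottom of the axis in starvation, arg5,6 stays level, arg8_2, bat1 and aro8 are higher in starvation, and thr4 and his1 are low only in starved glucose.

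Arginine genes split by step. The first enzymes, which acetylate and phosphorylate glutamate, stayed near their level. The acetyltransferase arg2 had means of 120.2 ± 6.39 and 121 ± 12.0 CPM in exponential and starved glucose, and the bifunctional arg5,6 (PHBOTO_001346) had 742, 738 and 717 CPM against 824, 792 and 766 CPM. On xylose arg5,6 had 710.0, 710.2 and 726 CPM and then 722, 774 and 724 CPM. Neither starvation change of arg5,6 passed the test (0.12 ± 0.07, adjusted p = 0.159, and 0.05 ± 0.07, adjusted p = 0.554), nor did that of arg2 on glucose (0.01 ± 0.08). On glucose every starved library was nonetheless above every exponential one for arg5,6. On xylose arg2 fell by 0.20 ± 0.08 (adjusted p = 0.0373), a call kept in 7 of the 12 fits that each left out 1 library.

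The acetylornithine aminotransferases of the next step rose. The locus arg8 (PHBOTO_005787) went from 180.4, 165 and 164 CPM to 236, 219.8 and 274 CPM on glucose, and from 114, 113 and 112 CPM to 247, 218 and 249.5 CPM on xylose. Its putative second copy arg8_2 (PHBOTO_001252) went from 18.0, 22.8 and 19.7 CPM to 136, 133 and 119.5 CPM on glucose, and from 14.9, 13.1 and 14.8 CPM to 92.8, 103 and 88.5 CPM on xylose. Groups did not overlap for either, and the rises were 0.52 ± 0.09 and 1.08 ± 0.09 for arg8 and 2.68 ± 0.11 and 2.73 ± 0.11 for arg8_2. The later steps fell. The acetyl transfer enzyme arg7 fell by 1.20 on glucose and fell by 0.50 on xylose (SE 0.08 for both). The ornithine carbamoyltransferase arg3 changed by -1.49 ± 0.08 and -1.43 ± 0.08, and the argininosuccinate lyase arg4 by -1.75 ± 0.09 and -1.56 ± 0.09. The argininosuccinate synthase arg1 (PHBOTO_005492) went from 1263, 1254 and 1235 CPM to 489, 532 and 530.4 CPM on glucose, and from 1319, 1353 and 1300.2 CPM to 624, 571 and 597 CPM on xylose. Its change was -1.27 ± 0.08 (adjusted p = 2.08e-10) and -1.15 ± 0.08 (adjusted p = 7.75e-10).

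All 7 histidine genes fell on glucose and 6 of them on xylose. Median changes were -1.19 and -1.02. The glutamine amidotransferase and cyclase his7 changed by -1.77 ± 0.08 and -1.83 ± 0.08, and the dehydratase his3 by -1.65 ± 0.09 and -1.24 ± 0.09. The aminotransferase his5 (PHBOTO_005070), highest of the pathway by mean CPM over all 12 libraries, without correction for gene length, had 261, 261 and 276 CPM in exponential glucose and 205, 163 and 169 CPM in starved glucose. On xylose it had 254, 229.5 and 250.1 CPM and then 164, 150.0 and 142 CPM. It showed the shallowest fall of the pathway on glucose, -0.57 ± 0.09, with -0.69 ± 0.09 on xylose. The first enzyme, the phosphoribosyltransferase his1 (PHBOTO_005991), had 151, 146 and 145 CPM in exponential glucose and 119.5, 115 and 114 CPM in exponential xylose. In starvation it had 46.2, 56.5 and 91.05 CPM on glucose and 115, 115 and 110.0 CPM on xylose. The starved glucose libraries were the lowest and the most spread, with C above A and B. The fall on glucose was called (-1.19 ± 0.16, adjusted p = 5.09e-06), and on xylose the groups overlapped (-0.04 ± 0.16, adjusted p = 0.83).

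Lysine is made in fungi through aminoadipate, and 5 of 6 tested genes fell on each sugar. The locus aro8, annotated as an aromatic/aminoadipate aminotransferase and counted below with the aromatic genes, rose on both sugars. The homocitrate synthase lys20 (PHBOTO_004550), which opens the route, had 799, 721 and 708 CPM in exponential glucose and 685, 719.5 and 688 CPM in exponential xylose. Starvation values were 103, 134 and 134 CPM on glucose and 195, 174 and 150.3 CPM on xylose. Starved libraries were all below the exponential ones, with a change of -2.58 ± 0.12 and -2.01 ± 0.11. The saccharopine dehydrogenase lys9 changed by -2.40 ± 0.10 and -1.72 ± 0.10, the aminoadipate reductase lys2 by -1.90 ± 0.09 and -1.76 ± 0.09, and the homoaconitase lys4 by -1.53 ± 0.08 and -1.47 ± 0.08. The putative reductase copy lys2_4 was called on neither sugar (0.24 ± 0.13 and -0.17 ± 0.13).

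In the aromatic pathway the entry and middle of the shared trunk fell far, and its last step and the chorismate mutase less so. Both isozymes of the entry step, the DAHP synthases aro3 and aro4, changed by -2.84 on glucose (SE 0.08 and 0.15). The phenylalanine-inhibited aro3 (PHBOTO_003128) went from 375, 364 and 357 CPM to 49.1, 48.3 and 55.7 CPM on glucose, and from 331, 338 and 337 CPM to 65.1, 68.3 and 67.2 CPM on xylose. The tyrosine-inhibited aro4 (PHBOTO_002315) went from 240.5, 219 and 219 CPM to 27.9, 25.6 and 41.4 CPM, and on xylose from 173, 161 and 165 CPM to 52.6, 47.6 and 41.9 CPM. No starved library overlapped an exponential one for either isozyme, and on xylose they changed by -2.33 ± 0.08 and -1.81 ± 0.14. The pentafunctional enzyme aro1 (PHBOTO_003868), which carries the middle of the pathway on one polypeptide, went from 554, 501 and 482 CPM to 74.3, 81.5 and 85.9 CPM on glucose. On xylose it went from 441, 458 and 449 CPM to 95.3, 83.7 and 89.3 CPM. These are changes of -2.67 ± 0.09 and -2.33 ± 0.09. The chorismate synthase aro2, which closes the trunk, fell by 1.00 and 0.81, and the chorismate mutase aro7, first in the branch to phenylalanine and tyrosine, fell by 0.55 and 0.66.

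The locus aro8 (PHBOTO_001687), annotated as an aromatic/aminoadipate aminotransferase, went the other way. It had 140.0, 124 and 119 CPM in exponential glucose and 222, 353 and 397 CPM in starved glucose. On xylose it had 67.4, 65.2 and 65.1 CPM and then 499, 490.1 and 528 CPM. All starved libraries were above all exponential ones, the starved glucose libraries were spread, and the rise was 1.34 ± 0.15 (adjusted p = 4.29e-07) on glucose and 2.94 ± 0.16 (adjusted p = 4.70e-11) on xylose. The regulator aro80 (PHBOTO_000821), which in S. cerevisiae activates genes of aromatic amino acid catabolism, had 63.1, 58.5 and 60.7 CPM in exponential glucose and 76.0, 63.0 and 77.6 CPM in starved glucose. On xylose it had 57.4, 62.0 and 55.1 CPM and then 80.5, 85.8 and 99.2 CPM. Its groups overlapped on glucose (0.25 ± 0.10, adjusted p = 0.0338, called in 8 of the 12 fits that each left out 1 library) and did not on xylose (0.61 ± 0.10, adjusted p = 4.01e-05).

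The name aro1 was given to 5 further loci, annotated as putative pentafunctional enzymes. Of these, aro1_5, aro1_2 and aro1_3 have consecutive locus names, PHBOTO_002442, PHBOTO_002443 and PHBOTO_002444. The first 2 were listed at 0 in all libraries, while aro1_3 was weakly expressed, with 1.13, 1.06 and 0.438 CPM in exponential glucose and 0.811, 0.739 and 0.918 CPM in exponential xylose. It reached 7.35, 12.3 and 10.3 CPM in starved glucose and 13.6, 13.2 and 13.6 CPM in starved xylose. The groups did not overlap, and the rises of 3.45 ± 0.30 and 4.03 ± 0.29 were the largest of all tested members on both sugars. The copy aro1_4 fell on glucose (-0.67 ± 0.13) and was not called on xylose (-0.18 ± 0.13), and aro1_6, at a mean of 0.667 to 1.36 CPM per group, was called on neither. Which of the enzyme's activities these loci encode was not analysed here.

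Tryptophan genes fell in 4 of 4 cases on both sugars, and none of them was called between the sugars in either phase. The synthase trp5 (PHBOTO_004834) had 318, 299.9 and 306 CPM in exponential glucose and 306, 309 and 305 CPM in exponential xylose. It had 149.6, 151 and 141 CPM in starved glucose and 146, 161 and 142 CPM in starved xylose. Starved values were close to each other and well below the exponential ones, at -1.07 ± 0.07 and -1.03 ± 0.07. The phosphoribosyltransferase trp4 had the deepest fall of the pathway, -2.05 ± 0.10 and -1.78 ± 0.10. The anthranilate synthase component trp2 changed by -1.52 ± 0.09 and -1.63 ± 0.09, and the multifunctional trp3, which holds its partner activity in S. cerevisiae, by -0.50 ± 0.09 and -0.58 ± 0.09.

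The aspartate-derived route to homoserine and threonine fell in 5 of 5 genes on glucose and 4 of 5 on xylose. The semialdehyde dehydrogenase hom2 and the homoserine dehydrogenase hom6 fell by 2.62 and 2.74 on glucose, and fell by 2.52 and 2.80 on xylose, ahead of the aspartokinase hom3 (-1.65 ± 0.10 and -1.20 ± 0.10) and the homoserine kinase thr1 (-1.58 ± 0.09 and -1.15 ± 0.09). The last enzyme, the threonine synthase thr4 (PHBOTO_004978), had 536, 535 and 511 CPM in exponential glucose and 496, 501 and 542 CPM in exponential xylose. It had 141, 211 and 208 CPM in starved glucose and 512, 536 and 549 CPM in starved xylose. Only starved glucose stood apart: thr4 fell there by 1.5 ± 0.12 (adjusted p = 7.55e-09), and on xylose the groups overlapped (0.05 ± 0.12, adjusted p = 0.683).

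On the serine route 1 gene was tested and fell on both sugars, and of the proline genes 3 of 3 fell on glucose and 2 of 3 on xylose. The phosphoglycerate dehydrogenase ser33 (PHBOTO_001060), the first enzyme from glycolysis to serine, went from 573, 563 and 547 CPM to 161, 176 and 143 CPM on glucose and from 569.7, 606 and 603 CPM to 128, 140.2 and 125 CPM on xylose. Its phases did not overlap, at -1.81 ± 0.09 and -2.18 ± 0.09. The pyrroline-5-carboxylate reductase pro3 (PHBOTO_000289), the last enzyme of proline synthesis, went from 177, 172 and 180.0 CPM to 37.6, 44.7 and 34.6 CPM on glucose, and from 176, 165 and 183 CPM to 30.3, 28.2 and 24.2 CPM on xylose. It too was separate in all replicates, at -2.18 ± 0.11 and -2.67 ± 0.11. The glutamate kinase pro1 fell by 1.11 and 0.75. The phosphate reductase pro2 (PHBOTO_002169) had 147, 132 and 141 CPM and then 66.8, 76.6 and 72.2 CPM on glucose, but 99.2, 91.9 and 86.9 CPM and then 114, 95.4 and 94.9 CPM on xylose. It fell on glucose (-0.96 ± 0.09, adjusted p = 8.33e-08), and its groups overlapped on xylose (0.13 ± 0.09, adjusted p = 0.208).

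**Figure D4:**
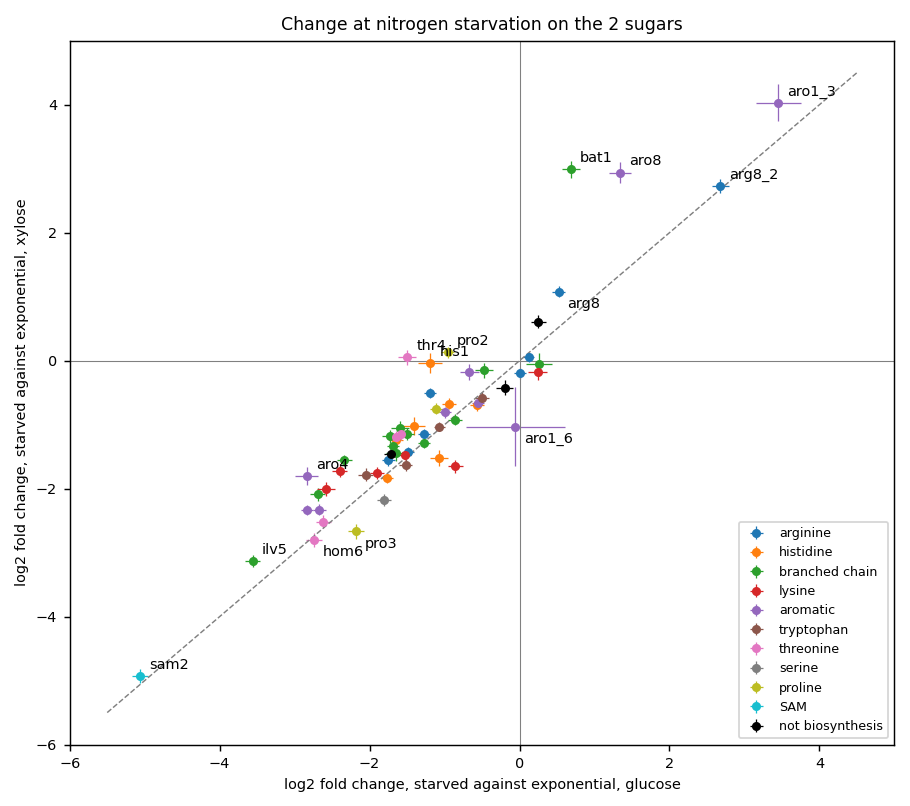
Log2 fold change at starvation on glucose (x axis) and on xylose (y axis) for the 60 tested members, coloured by pathway, with bars of 1 SE and a dashed line of equal change. Most points lie in the lower left, sam2 farthest, while bat1 and aro8 stand well above the line and thr4, his1 and pro2 are near 0 on xylose only.

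Aminotransferases, a grouping made after the values were seen, had calls in both directions. Of 9 such loci 7 were tested, and on each sugar 4 rose (arg8, arg8_2, bat1 and aro8) and 3 fell (his5, bat1_2 and bat2). Over all genes tested, 40.1% rose and 41.1% fell on glucose, and 40.6% and 40.6% on xylose. Of the 50 other tested enzymes 1 rose on each sugar (aro1_3), and 44 fell on glucose and 40 on xylose. The remaining named loci were the kinase arg82, not called on glucose (-0.20 ± 0.11) and lower on xylose (-0.42 ± 0.11), and the mitochondrial sam50, which fell by 1.71 and 1.46.

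Starvation changes on the 2 sugars were correlated across the members and differed in size for part of the genes. Across the 60 members the changes had a Pearson correlation of 0.93, a description over genes that share 12 libraries, beside 0.88 over all 5805 genes. Of the 43 members lower on both sugars, 31 (72.1%) had the smaller fall on xylose, where 59.0% of the 2010 genes lower on both did. Their median change was -1.65 on glucose and -1.46 on xylose. By the interaction test, 23 members changed more upward on xylose than on glucose and 4 more downward, where 21.7% and 16.5% of all genes did. Without starved xylose A the 23 became 14, and without exponential glucose B, exponential xylose B or exponential xylose C the 4 became 2. The 23 were 17 genes that fell on both sugars, 3 that fell on glucose without a call on xylose (his1, thr4 and pro2) and 3 that rose on both (arg8, bat1 and aro8). They held 8 of the 13 branched-chain genes, 4 of 9 aromatic genes, 3 of 5 homoserine and threonine genes and none of the 4 tryptophan genes. Without starved xylose A these were 4 branched-chain, 3 aromatic and 1 homoserine and threonine gene. The 4 in the other direction, which fell on both sugars and further on xylose, were his6, lys2_2, ser33 and pro3. The largest differences were those of bat1 (2.31 ± 0.17, adjusted p = 8.63e-08), aro8 (1.60 ± 0.21, adjusted p = 3.25e-05), thr4 (1.55 ± 0.17, adjusted p = 4.71e-06) and his1 (1.15 ± 0.23, adjusted p = 0.00111), and each was called in every fit that left out 1 library.

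In exponential growth most members were not called between the sugars, a share near that of all genes. On xylose 11 members were lower and 1 was higher, where 10.8% of all genes were lower and 9.94% higher, and the median was -0.12 beside -0.03 over all genes. The replicates of the sugars did not overlap for 31 members lower and 6 higher on xylose (background 29.2% and 24.0%). The lower members were led by bat1 (-1.16 ± 0.12, adjusted p = 3.02e-06), aro8 (-0.95 ± 0.15, adjusted p = 2.09e-04), pro2 (-0.60 ± 0.09), arg8 (-0.59 ± 0.09) and arg8_2 (-0.50 ± 0.11), followed by aro4, arg7, aro2, pro1, leu1 and ilv3 at -0.44 to -0.28. The higher one was lys2_2 (PHBOTO_003075), a putative aminoadipate reductase. It had 177, 169 and 174 CPM in exponential glucose and 254, 334 and 318 CPM in exponential xylose. In starvation it had 88.5, 105 and 93.6 CPM on glucose and 93.6, 95.8 and 98.5 CPM on xylose. Its sugar groups were apart in exponential growth (0.80 ± 0.10, adjusted p = 1.53e-05) and overlapped in starvation (0.01 ± 0.10). With only the exponential groups in the fit, 20 members were called lower and 5 higher, beside 20.5% and 22.4% of the 5733 genes then tested.

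In starvation 20 members were higher on xylose and 7 lower, where 23.0% and 19.2% of all genes were, and the median was 0.09 beside 0.00. Apart from thr4 (1.51 ± 0.12, adjusted p = 1.15e-07) and bat1 (1.15 ± 0.12, adjusted p = 2.72e-06), no called difference reached 2-fold. Among the higher members were his1 (0.81 ± 0.16), aro8 (0.64 ± 0.15), aro4 (0.58 ± 0.14), lys9 (0.56 ± 0.10), ilv3 (0.51 ± 0.09) and pro2 (0.50 ± 0.09). The lower ones were pro3 (-0.50 ± 0.11), arg8_2 (-0.45 ± 0.10), his6 (-0.44 ± 0.12), aro7 (-0.31 ± 0.08), arg2 (-0.30 ± 0.09), ser33 (-0.29 ± 0.09) and his5 (-0.24 ± 0.09). The weakest calls, his2, ilv5 and arg1, held in 2 and his5 in 3 of the 12 fits that left out 1 library. With only the starved groups in the fit, 13 members were higher and 4 lower, beside 15.9% and 12.5% of the 5672 genes then tested. The order of the sugars turned between the phases for 6 members, arg7, ilv3, bat1, aro4, aro8 and pro2, which were lower on xylose in exponential growth and higher on xylose in starvation. For 4 of them (arg7, bat1, aro8 and pro2) both calls held in all 12 fits that left out 1 library, while the exponential calls of aro4 and ilv3 held in 6. The share of all genes that turned in this way is not given here, so the turn is not read as particular to these members. Only arg8_2 was called lower on xylose in both phases.

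**Figure D5:**
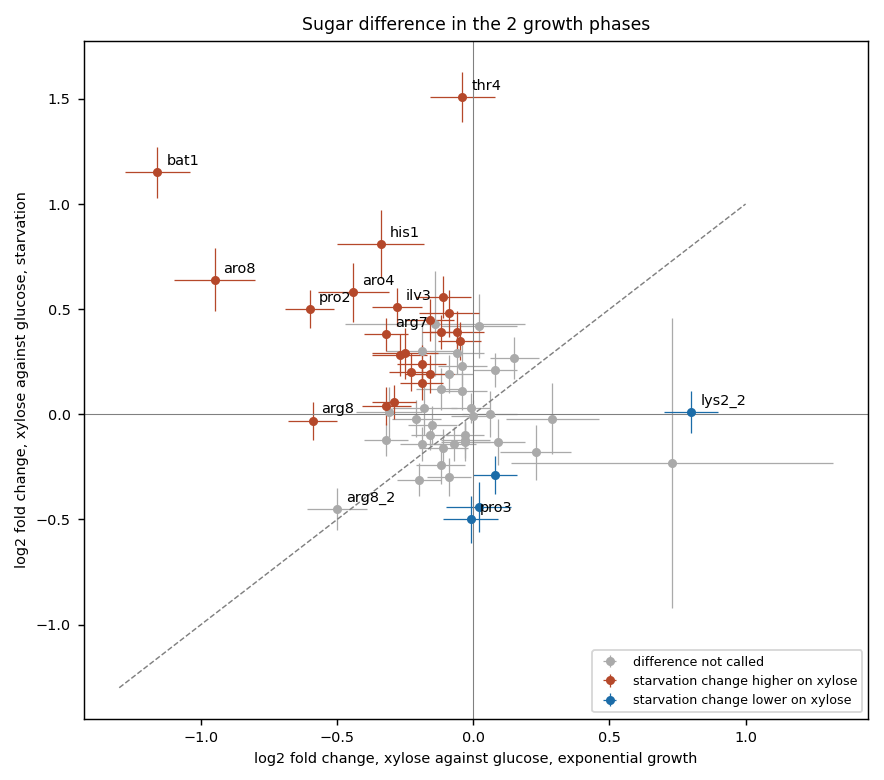
Log2 fold change of xylose against glucose in exponential growth (x axis) and in starvation (y axis) for the 60 tested members, with bars of 1 SE; colour marks the interaction call, and the dashed line marks an equal sugar difference in both phases. The members bat1, aro8 and pro2 lie in the upper left, thr4 and his1 above the rest, and lys2_2 to the right.

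The 8 untested members were lys1, lys12, lys2_3, ser1, leu5, aro1_2, aro1_5 and aro8_2. All but lys2_3 (0 to 14 counts per library) were listed at 0 in every library. Over the whole table, counts were 0 in all libraries for 615 loci, 259 of them with a gene name, among them erg20, the farnesyl diphosphate synthase that every yeast cell uses. Listing at 0 is therefore not read here as absence of expression, and the last lysine step and the serine aminotransferase have no value.

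Other enzymes of amino acid metabolism, from lists of gene names, moved in the same 2 directions. Of 23 further tested loci for amino acid synthesis and assimilation, 17 fell and 6 rose on glucose (41.1% and 40.1% of all genes). On xylose 13 fell and 4 rose (40.6% and 40.6% of all genes). The deepest fall of these loci was that of met17 (-8.32 ± 0.28 on glucose and -7.48 ± 0.26 on xylose). The methionine synthase met6, upstream of sam2, went from 3829 ± 271 to 133 ± 17.7 CPM on glucose (-4.85 ± 0.12) and changed by -3.68 ± 0.11 on xylose. Asparagine synthetase asn2 changed by -2.49 ± 0.09 and -2.55 ± 0.09. Those that rose on both sugars were cys4_2 (3.49 ± 0.14 and 4.00 ± 0.15), a putative cystathionine synthase copy, the threonine aldolase gly1 (1.64 ± 0.09 and 2.37 ± 0.09), glutamine synthetase gln1 and glutamate dehydrogenase gdh2. Of 27 tested loci on the list of amino acid breakdown, of which 6 carry the name ald4, 16 rose and 5 fell on glucose, and 18 rose and 8 fell on xylose. Over all genes tested, 40.1% rose and 41.1% fell on glucose, and 40.6% rose and 40.6% fell on xylose. The arginases car1_2 (3.59 ± 0.11 and 3.24 ± 0.10) and car1 (0.42 ± 0.11 and 1.40 ± 0.11) and the ornithine aminotransferase car2 (1.81 ± 0.11 and 2.25 ± 0.11) rose, opposite to arg3, arg1 and arg4. The tryptophan-opening dioxygenase bna2_2 rose by 4.74 ± 0.15 and 7.51 ± 0.18. Its copy bna2 rose less (0.89 ± 0.08 and 0.98 ± 0.08), while bna4, of the same breakdown route, fell (-0.75 ± 0.09 and -0.44 ± 0.09), as did bna4_2 (-1.92 ± 0.69 and -3.36 ± 0.65).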

How the data were processed

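Messenger RNA was measured in 12 libraries. Count columns hold, per the file headers, the authors' raw read counts per locus, and the signal columns are deposited normalized counts (each count divided by 1 factor per library). The log2 columns are the authors' log2 fold changes and the p-value columns the authors' adjusted p-values, deposited for 4 comparisons. Per the submitters' processing notes, reads were handled with bcl2fastq 2.20.0.422, CASAVA, Trim Galore 0.6.1, cutadapt 2.3 and HISAT2 2.2.1, and DESeq2 was used. Per the labels' protocols, a stranded poly-A kit was used. The counter, its strand setting, multi-mapping rule, build and annotation were not given in the sources used here, so copies with a suffix (13 members) and overlapping genes may share reads. The growth protocol text names glucose for every sample; the sugar was taken from the sample's sugar label.

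Raw counts of all 12 libraries went into a single edgeR 4.0.16 model under R 4.3.3, with a coefficient for each group, filterByExpr (minimum count 10, total 15), TMM scaling and quasi-likelihood F tests, 8 residual degrees of freedom, with Benjamini-Hochberg over the 5805 genes tested. Each SE was taken as the size of the log2 change over the root of its F statistic. Names were given by rule: the 4 largest called changes per comparison (at least 20 CPM in the higher group), members rising in starvation and the highest member of each pathway carry values per library. Further members of each pathway were named for their step. Alternatives were RLE scaling, no filter, DESeq2 1.42.0, fits of the compared groups only, a replicate block, each library left out, and a 2-fold threshold. The code was tested on simulated counts. Members and lists were chosen with earlier results of these data known. Same-letter libraries of different groups correlated at -0.120 to 0.171 in their deviations from group means (median -0.012). Different-letter libraries correlated at -0.168 to 0.114 (median 0.004). No shared effect of a letter was seen, but these correlations cannot show whether same-letter libraries came from the same culture. The main model did not pair letters, and the replicate block was an alternative. Sequences were not analysed here.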

Additional observations from a re-analysis of the deposited data

Results flagged for a closer look

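For 27 members the starvation change differed between the sugars by edgeR's interaction test (adjusted p under 0.05), each as the log2 change on xylose minus that on glucose. Of the 60 tested members 23 were called higher and 4 lower, where 21.7% and 16.5% of all genes tested were. The aminotransferases gave bat1 2.31, aro8 1.60 and arg8 0.56. The genes that fell on glucose without a call on xylose gave thr4 1.55, his1 1.15 and pro2 1.09. Of these, pro2 was also called lower on xylose in exponential growth (-0.60 ± 0.09). Aromatic trunk genes gave aro4 1.02, aro3 0.51 and aro1 0.34. Branched-chain genes gave ilv3 0.78, leu2 0.61, ilv6 0.55, ilv2 0.53, ilv5 0.44, leu4 0.35 and leu1 0.35. Lysine genes gave lys9 0.67 and lys20 0.57, and others gave arg7 0.70, hom3 0.45, thr1 0.43, his3 0.41 and pro1 0.36. Below 0 were lys2_2 (-0.79), pro3 (-0.49), his6 (-0.45) and ser33 (-0.37). Of the 27, 16 were called in all 12 fits that each left out 1 library. Replicates of starved glucose were the most spread for several of these genes, with his1 at 36.3% coefficient of variation, and the part of that spread in the differences was not tested.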

How the results depend on the processing

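Calls at starvation were stable: on glucose 53 of 54 and on xylose 50 of 51 member calls held in all 12 fits that left out 1 library (exceptions aro80 and arg2). With the replicate block, starvation counts stayed at 48 lower and 6 higher on glucose and 45 lower and 6 higher on xylose, and the interaction count went from 23 to 21 higher, with 4 lower in both. The block ended the calls of arg1 and ilv5 between starved sugars (adjusted p = 0.0652 and 0.0670); RLE scaling left 16 higher and 7 lower between starved sugars and 21 higher and 4 lower in the interaction. Among members with values per library it ended the calls of arg1, ilv5 and sam2 between starved sugars and of aro1 in the interaction (adjusted p = 0.0843, 0.0821, 0.0594 and 0.0510). With only the compared groups in the fit, 20 members were lower and 5 higher on xylose in exponential growth, and 13 higher and 4 lower in starvation. With a 2-fold threshold, rises on glucose numbered 3, the exponential sugar difference 1 lower and 0 higher, the starved one 2 higher and 0 lower, and the interaction 6 higher and 0 lower. Leaving out 1 library gave 14 to 24 higher and 2 to 5 lower in the interaction. The cause was not tested. The authors' deposited table, from DESeq2, holds 7 higher and 48 lower members on glucose and 6 and 45 on xylose. Among its higher members on glucose is arg5,6 (0.14, DESeq2 adjusted p = 0.0221), not called here. The weakest tested member, aro1_6, had 0 to 53 counts per library.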

Other observations

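Amino acid permeases and regulators, from the lists of names, were not part of the rule. Of 13 tested permease loci, 9 rose and 3 fell on glucose, and 8 rose and 4 fell on xylose, where 40.1% and 41.1% of all genes tested did on glucose and 40.6% and 40.6% on xylose. The general amino acid permease gap1 went from 422 ± 6.27 to 1921 ± 89.2 CPM on glucose and from 563 ± 43.9 to 2168 ± 335 CPM on xylose (2.19 ± 0.11 and 1.94 ± 0.11). The GABA permease uga4 rose by 6.25 ± 0.13 and 5.63 ± 0.13, and the lysine permease lyp1 fell by 3.62 and 4.43. The permease locus dip5_3 went from 1156.5 ± 44.6 to 3.39 ± 3.12 CPM on glucose and from 1559 ± 181 to 8.68 ± 4.17 CPM on xylose. Of 16 tested regulator loci, 4 rose and 10 fell on glucose, and 4 rose and 8 fell on xylose, beside the same shares of all genes. The same 4 rose on both sugars: the kinase gcn2 (0.83 ± 0.08 and 0.66 ± 0.08), the GATA factor gat1 (0.71 ± 0.08 and 0.81 ± 0.08) and the putative ure2 copies ure2_2 and ure2_3 (2.42 ± 0.10 and 2.12 ± 0.10 for the latter). The Gcn2 activator gcn1 changed by -1.75 ± 0.12 and -1.57 ± 0.12. The scaffold asc1, a ribosome-bound protein, changed by -4.03 ± 0.12 and -3.10 ± 0.11, and these levels of RNA do not report the activity of the proteins.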
